A study of Rattus norvegicus with 9 samples.

Results

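Interstitial collagens and fibronectin were described through 4 genes: Col1a1 (ENSRNOG00000003897), Col1a2 (ENSRNOG00000011292), Col3a1 (ENSRNOG00000003357) and Fn1 (ENSRNOG00000014288). They were taken by identifier from a table of 22637 rat genes, and all 4 were among the 17584 genes with enough counts to be tested. SD rats (Sprague-Dawley, outbred) gave the kidneys, which were profiled by RNA sequencing of polyadenylated RNA in 3 groups of 3 libraries. One group held controls, the next the chronic kidney disease (CKD) model, and the last a treatment with mesenchymal stem cells (MSC, stromal cells that can form bone, cartilage and fat). By the series title, the cells were infused under ultrasound guidance into the tissue of diseased kidneys. The labels used here are silent on how disease was produced, on what controls received, on age and sex, on the origin, species and dose of the infused cells, and on when kidneys were taken. Separate animals are not stated for the replicates. The p-values below thus measure the spread among libraries, part of which may be technical.

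Collagen type I is a triple helix of 2 α1 chains, encoded by Col1a1, and 1 α2 chain, encoded by Col1a2. Collagen type III, a homotrimer encoded by Col3a1, is laid down with type I in the stroma between tubules and vessels. Fibronectin, encoded by Fn1, is a cell-adhesive glycoprotein that integrins assemble into fibrils and on which collagen is deposited. In kidney these matrix proteins are made chiefly by fibroblasts, pericytes and myofibroblasts, with fibronectin also made by mesangial and injured tubular cells. Their accumulation is the hallmark of interstitial fibrosis, and transforming growth factor β acting through SMAD proteins is its classical inducer.

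Of the 4 genes, Col1a2 had an upstream sequence in the RefSeq promoter table (build GRCr8). It is shown because Col1a2 is one of 4 genes whose transcripts moved together below. The stretch lies at chr4:33518307-33518406, plus strand, and covers bases 250 to 151 upstream of the RefSeq transcript start, with motif matches in capitals.
Col1a2 upstream: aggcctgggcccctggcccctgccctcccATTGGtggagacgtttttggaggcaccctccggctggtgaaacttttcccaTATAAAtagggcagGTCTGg
The first match, ATTGG, is the CCAAT box motif read on the minus strand (bases 221 to 217 upstream of the start). TATAAA is the TATA box motif (bases 170 to 165), and GTCTG is the SMAD half-site CAGAC on the minus strand (bases 156 to 152). A second GTCTG lay outside the printed stretch, at bases 23 to 19. Both strands of the 250 bases upstream of the start were searched, and the matches did not overlap each other. Among 33469 promoters of the table, 34.0% held CCAAT, 12.9% held TATAAA, and 42.9% held CAGAC, so these letters are common. The GC box motif GGGCGG, found in 30.5% of promoters, was searched too and had no match in this window.

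Libraries held 53059872 to 54234681 counts in control, 56442995 to 58546847 in CKD and 47633344 to 48767298 in MSC kidneys. These ranges did not overlap, so library depth and group cannot be told apart. The smallest count of a member in any library was 950, for Col1a1 in control replicate 3, which corresponds to a counting error of 3.24%, far below the spread between replicates. Levels are given as CPM, which sets counts against the library total, with TMM factors that correct for library composition. CPM values are not divided by transcript length, so levels are compared between groups and not between genes. One CKD library, replicate 2, stood apart from its group: on the first principal component of log2 CPM (56.9% of the variance) it scored 9.32, against -39.9 and -71.6 for the other CKD libraries, -77.2 to -45.8 for controls and 66.8 to 118 for MSC libraries. The folds that rest on CKD libraries are therefore also given without it. Gene names were not paired with any other identifier of the table, so the tissue label was not checked against kidney markers and other matrix, fibroblast or immune genes were not analysed here.

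All 4 transcripts were several times more abundant in MSC kidneys than in either other group, and none differed detectably between CKD and control kidneys. The joint test of the 3 groups called each of them (edgeR quasi-likelihood test, adjusted p = 0.00623 for Col1a1, 0.00352 for Col1a2, 0.00381 for Col3a1 and 0.0058 for Fn1). That test called 26.2% of all tested genes at an adjusted p under 0.05. For each member, every MSC library lay above every control and CKD library, which was true of 18% of tested genes. Together the 4 genes took 0.230%, 0.174% and 0.105% of all counts in MSC replicates 1, 2 and 3. Their share was 0.0264%, 0.0188% and 0.0118% in control replicates 1 to 3 and 0.0172%, 0.0411% and 0.0114% in CKD replicates 1 to 3. In whole-tissue RNA, more cells that make a transcript and more transcript per cell cannot be told apart. Transcripts of any infused cells in MSC kidneys and those of the kidney's own cells cannot be told apart either.

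**Figure D1:**
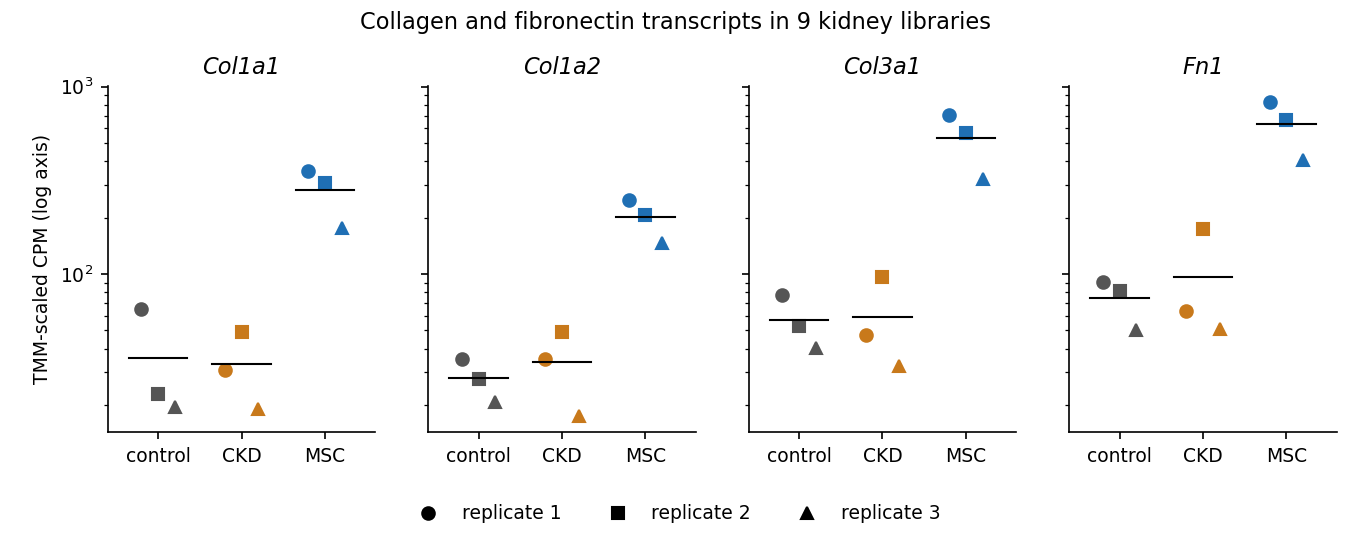
TMM-scaled CPM (log axis) of Col1a1, Col1a2, Col3a1 and Fn1 in each of 9 kidney libraries, by group, with a symbol for each replicate number and a line at the group mean. MSC libraries sit above all others for each gene, control and CKD libraries overlap, and CKD replicate 2 is the highest CKD library in each panel.

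Collagen type I was described first. Col1a1, the α1 chain gene, was at 64.8, 22.9 and 19.5 CPM in control replicates 1 to 3, at 30.6, 49.1 and 19.0 CPM in CKD replicates 1 to 3 and at 357, 306 and 176 CPM in MSC replicates 1 to 3. Control replicate 1 was thus the highest library outside the MSC group, and the lowest MSC library was still 2.72 times above it. Mean levels were 35.7 ± 25.2 CPM for controls, 32.9 ± 15.2 for the CKD model and 279.6 ± 93.2 for MSC treatment (SD, n = 3 each). Col1a1 rose 8.49-fold from CKD to MSC kidneys, by 3.09 ± 0.54 on the log2 scale (SE, edgeR adjusted p = 0.00822), with a 95% interval of 3.63-fold to 19.9-fold. Between MSC and control kidneys the log2 fold was 2.97 ± 0.54 (edgeR adjusted p = 0.00665). That value depends on control replicate 1: without it the log2 fold was 3.72 (edgeR adjusted p = 0.00828).

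Col1a2, the α2 chain gene, was the least variable member in controls, at 35.1, 27.5 and 20.8 CPM in replicates 1 to 3. In CKD replicates 1 to 3 it was at 35.1, 49.0 and 17.4 CPM, and in MSC replicates 1 to 3 at 248, 208 and 147 CPM. Group means were 27.8 ± 7.17, 33.8 ± 15.8 and 200.8 ± 50.8 CPM in the same order of groups (SD, n = 3 each). CKD libraries spread on both sides of the controls, whereas the lowest MSC library was at 3.00 times the highest CKD library. From CKD to MSC, Col1a2 rose by 2.57 ± 0.37 on the log2 scale (SE, edgeR adjusted p = 0.00505), or 5.93-fold with a 95% interval of 3.30-fold to 10.7-fold. Against control it was 2.85 ± 0.38 (edgeR adjusted p = 0.00338), or 7.22-fold.

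Col3a1, the single chain gene of collagen type III, showed the largest fold among the 4 in both comparisons with MSC kidneys. It was at 77.6, 52.9 and 40.2 CPM in control replicates 1 to 3, at 47.2, 96.9 and 32.3 CPM in CKD replicates 1 to 3, and at 702, 565 and 321 CPM in MSC replicates 1 to 3. Means were 56.9 ± 19.0, 58.8 ± 33.8 and 528.9 ± 192.9 CPM (SD, n = 3 each). As for collagen type I, control and CKD values were interleaved and MSC values were separate. Col3a1 rose from CKD to MSC by 3.17 ± 0.47 on the log2 scale (SE, edgeR adjusted p = 0.00511), or 8.99-fold with a 95% interval of 4.32-fold to 18.7-fold. Against control the log2 fold was 3.22 ± 0.47 (edgeR adjusted p = 0.00397). The intervals of all 4 genes overlapped, so the order of their folds is a description.

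Fn1, the fibronectin gene, was at 90.7, 81.6 and 50.6 CPM in control replicates 1 to 3 and at 827, 662 and 408 CPM in MSC replicates 1 to 3. In CKD kidneys it was uneven, at 63.2 and 51.1 CPM in replicates 1 and 3 and at 175 CPM in replicate 2, which was 2.35 times the control mean. The other CKD libraries lay within the range of the controls. Means were 74.3 ± 21.0, 96.3 ± 68.1 and 632.4 ± 210.7 CPM for controls, CKD and MSC (SD, n = 3 each). Fn1 rose from CKD to MSC by 2.71 ± 0.49 on the log2 scale (SE, edgeR adjusted p = 0.00901), or 6.56-fold with a 95% interval of 3.03-fold to 14.2-fold. With CKD replicate 2 left out, the rise was 3.47 (edgeR adjusted p = 0.0031), so that library moved the Fn1 fold by more than 1.5 times. Against control the log2 fold was 3.09 ± 0.50 (edgeR adjusted p = 0.00511), or 8.51-fold.

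Setting MSC beside CKD kidneys asks what went with the treatment. No group is labelled as infused without cells, so the cells and the infusion itself cannot be told apart. All 4 members rose, where 11.4% of tested genes were called higher and 22.8% were called in either direction. MSC and CKD values did not overlap for any member, with MSC higher, as for 22.1% of tested genes. The median log2 fold of the members was 2.90, against 0.0039 over all tested genes. Ranked by fold among all 17584 tested genes, Col3a1 was 296th, Col1a1 322nd, Fn1 460th and Col1a2 524th from the top. Most larger folds came from genes with few counts: among 13212 genes with a mean log2 CPM of at least 1 over all libraries, the ranks were 19, 23, 41 and 62 in the same order. Without CKD replicate 2, the highest CKD library for each gene, the log2 folds were 3.49 for Col1a1, 2.93 for Col1a2 and 3.73 for Col3a1. They had to lie above those with the library, since the CKD mean fell. Without CKD replicate 3, the lowest CKD library for each gene, the folds were 2.81, 2.25 and 2.87 in that order, and 2.41 for Fn1. An exact two-sided permutation test on log2 CPM gave p = 0.1 for each gene, the smallest p that 3 libraries against 3 allow, so that test could not pass the threshold.

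**Figure D2:**
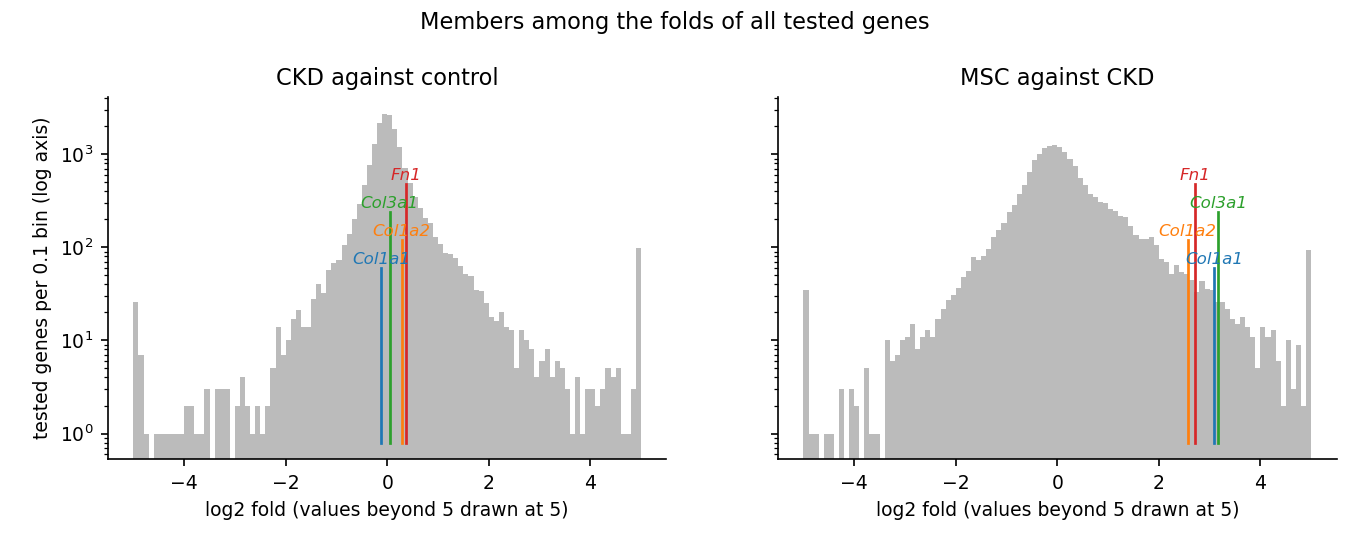
Histograms of log2 folds of all 17584 tested genes (log count axis) for CKD against control and MSC against CKD, with coloured lines at the 4 members. In the first panel the members lie between -0.12 and 0.38 within the bulk of genes, and in the second between 2.57 and 3.17 in the upper tail.

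Setting MSC beside control kidneys asks how treated kidneys differed from kidneys without the disease model. All 4 members rose here too, and 16.9% of tested genes were called higher and 32.3% in either direction. No member had overlapping values, and 27.2% of tested genes were separated in this direction. The MSC libraries serve in both comparisons, so the folds against control and against CKD are not independent. Col3a1 was 9.29-fold, Fn1 8.51-fold, Col1a1 7.82-fold and Col1a2 7.22-fold higher in MSC than in control kidneys. The lower 95% bounds of these folds were 4.46, 3.88, 3.36 and 3.99 in that order. By fold among all 17584 tested genes the 4 ranked 523rd, 570th, 630th and 692nd from the top, in the same order. Among the 13212 genes with a mean log2 CPM of at least 1 the ranks were 70, 80, 93 and 110, lower than in MSC against CKD. MSC replicate 3 was the lowest MSC library for each gene, at 4.92 times the control mean for Col1a1, 5.29 for Col1a2, 5.64 for Col3a1 and 5.50 for Fn1. MSC replicate 1, the highest, was at 9.98, 8.92, 12.3 and 11.1 times the control mean.

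Setting CKD beside control kidneys asks whether the disease model itself altered these genes. None of the 4 differed by edgeR's quasi-likelihood test, which called 0% of all tested genes, while 6.55% had an unadjusted p under 0.05 and no member was among them. The log2 fold between CKD and control was -0.12 ± 0.50 for Col1a1, 0.28 ± 0.36 for Col1a2, 0.047 ± 0.43 for Col3a1 and 0.38 ± 0.46 for Fn1 (SE, edgeR adjusted p of 0.886 or more). Values of both groups overlapped for each gene, whereas 11.8% of tested genes showed no overlap. DESeq2 called 69 genes in this comparison, 0.331% of those it tested, and none of the 4. The 95% intervals of the fold ran from 0.419 to 2.03 for Col1a1, from 0.697 to 2.12 for Col1a2, from 0.526 to 2.03 for Col3a1 and from 0.626 to 2.69 for Fn1. A 2-fold increase thus lay within the interval of each gene, and increases of more than 2.03-fold lay outside those of Col1a1 and Col3a1. These bounds hold for the fit of 9 libraries only, since the folds moved when single libraries were left out.

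The sign of these small differences hung on single libraries. Without CKD replicate 2, the log2 folds between CKD and control were -0.53 for Col1a1, -0.083 for Col1a2, -0.52 for Col3a1 and -0.38 for Fn1. Without control replicate 1, the highest control library for each gene, they were 0.65, 0.50, 0.35 and 0.56. Neither set contained a call (edgeR adjusted p of 0.88 or more). All 4 genes lay below the controls' mean in CKD replicate 3 and above it in CKD replicate 2. For Col1a1 these libraries were at 0.532 and 1.37 times the control mean, for Col1a2 at 0.626 and 1.76, for Col3a1 at 0.568 and 1.70 and for Fn1 at 0.687 and 2.35.

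**Figure D3:**
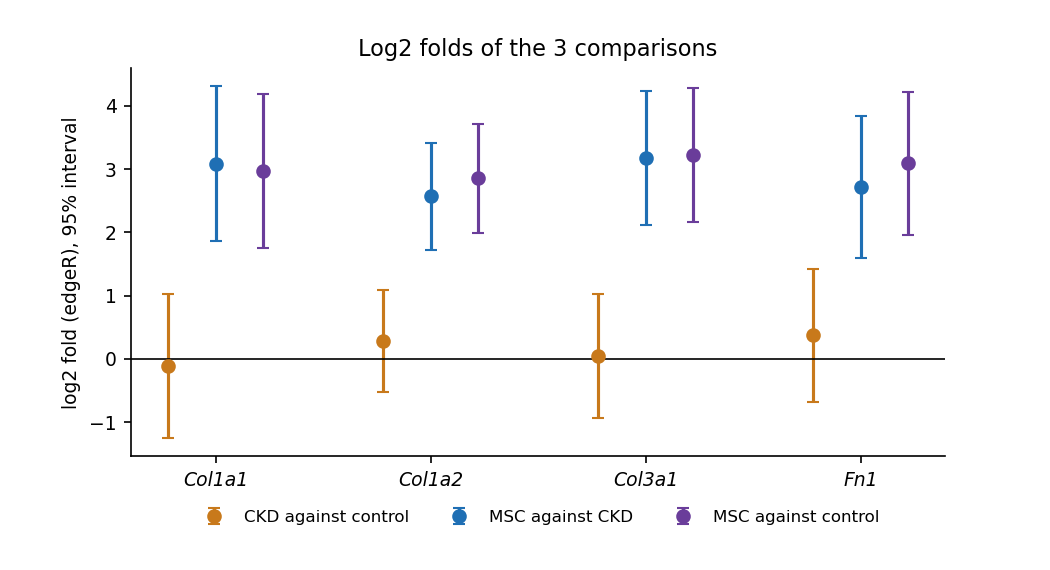
Log2 folds of the 4 members in the 3 comparisons with 95% intervals (edgeR quasi-likelihood fit of 9 libraries). Intervals of CKD against control span 0 for each gene, and those of both comparisons with MSC kidneys reach no lower than 1.60.

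The members varied in step within groups as well as between them. The order of libraries by level was the same for all 4 genes: replicates 1, 2, 3 from high to low in control, 2, 1, 3 in CKD and 1, 2, 3 in MSC kidneys. Of all tested genes 471 (2.68%) had this order in all 3 groups, and of the 2004 genes with a called rise from CKD to MSC kidneys 171 (8.53%) had it. The scores on the first principal component fell in the same order within each group, and the part of that component in the members' spread was not tested. Replicate spread was wide for these genes. The coefficient of variation was 70.6% for Col1a1 in control and 70.7% for Fn1 in CKD kidneys, higher than for 92.0% and 91.1% of tested genes in those groups, and the group medians over all genes were 15.5% and 17.0%. In MSC kidneys the coefficients ran from 25.3% for Col1a2 to 36.5% for Col3a1, against a median of 16.9%, and those of the members besides Col1a1 in control kidneys ran from 25.8% for Col1a2 to 33.4% for Col3a1.

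Likeness of pattern was measured by the correlation of log2 CPM over the 9 libraries among 13212 genes, as a description, since groups that stand apart set most of it. The gene closest to Col1a1 among the members was Col3a1 (r = 0.987, the 8th most similar of 13211 genes). Col3a1 and Fn1 were each other's 6th most similar gene (r = 0.993), and Col1a2 was the 11th for Col3a1 (r = 0.992). Col1a1 and Fn1 were the least alike pair (r = 0.970), at rank 59 in the list of Col1a1 and 195 in that of Fn1. High correlations were frequent: 6.07% to 9.01% of genes had r above 0.9 with a given member. With group means removed, the correlation was still 0.966 for Col3a1 with Fn1 and 0.795 for Col1a1 with Fn1, against a median between -0.041 and -0.028 over all genes. Fn1 was then 35th in the list of Col3a1, and Col3a1 40th in that of Fn1. Fn1 was only 502nd in the list of Col1a1, and Col1a1 1174th in that of Fn1. Many other genes thus followed a member more closely within groups. The non-members with the highest mean correlation to the 4 genes were ENSRNOG00000019648 (0.990) and ENSRNOG00000016343 (0.990), whose names are not paired with the identifiers in the files. ENSRNOG00000019648 averaged 40.1 ± 10.3, 45.0 ± 23.3 and 249.2 ± 62.2 CPM for controls, CKD and MSC (SD, n = 3 each) and rose from CKD to MSC by 2.47 ± 0.39 on the log2 scale (edgeR adjusted p = 0.00609). ENSRNOG00000016343 averaged 3.51 ± 1.21, 4.36 ± 2.79 and 25.5 ± 8.59 CPM (SD, n = 3 each) and rose by 2.55 ± 0.49 (log2, edgeR adjusted p = 0.0106).

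Ratios of counts within a library do not depend on scaling and show how evenly the members moved. The ratio of Col1a1 to Col1a2, the chains of collagen type I, was 0.873, 1.00 and 1.09 in CKD replicates 1 to 3 and 1.44, 1.48 and 1.20 in MSC replicates 1 to 3. It averaged 0.989 ± 0.110 for CKD and 1.37 ± 0.151 for MSC (SD, n = 3 each), with no overlap. In controls the ratio was 0.833 and 0.938 in replicates 2 and 3 but 1.85 in replicate 1, above every MSC library, so control and MSC ratios overlapped. The control mean was 1.21 ± 0.557 (SD, n = 3), above that of CKD kidneys, and 0.886 without control replicate 1, below it. The high Col1a1 level of control replicate 1 was therefore not matched by Col1a2 in that library. No transcript lengths were used, so a ratio of 1 does not mean equal numbers of molecules.

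Col3a1 and Col1a1 kept a steady ratio in MSC kidneys, at 1.97, 1.84 and 1.82 in replicates 1 to 3, within the range of 1.20 to 2.31 in controls. In CKD kidneys it ran from 1.54 to 1.97. The ratio of Fn1 to Col1a1 was 2.32, 2.16 and 2.32 in MSC replicates 1 to 3, a mean of 2.27 ± 0.0907. It spread far more elsewhere, from 1.40 to 3.56 in control and from 2.07 to 3.56 in CKD kidneys, with means of 2.52 ± 1.08 and 2.77 ± 0.750 (SD, n = 3 each). The CKD mean was 2.38 without CKD replicate 2 and the control mean 3.08 without control replicate 1, so the order of these groups also rests on single libraries. Col3a1 to Col1a2, a ratio added after the data were seen, was 2.58 ± 0.346 in MSC and 1.73 ± 0.336 in CKD kidneys, with values of 2.18 to 2.83 and of 1.34 to 1.98. The lowest MSC value was below the highest control value of 2.21. No test was made of any ratio.

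**Figure D4:**
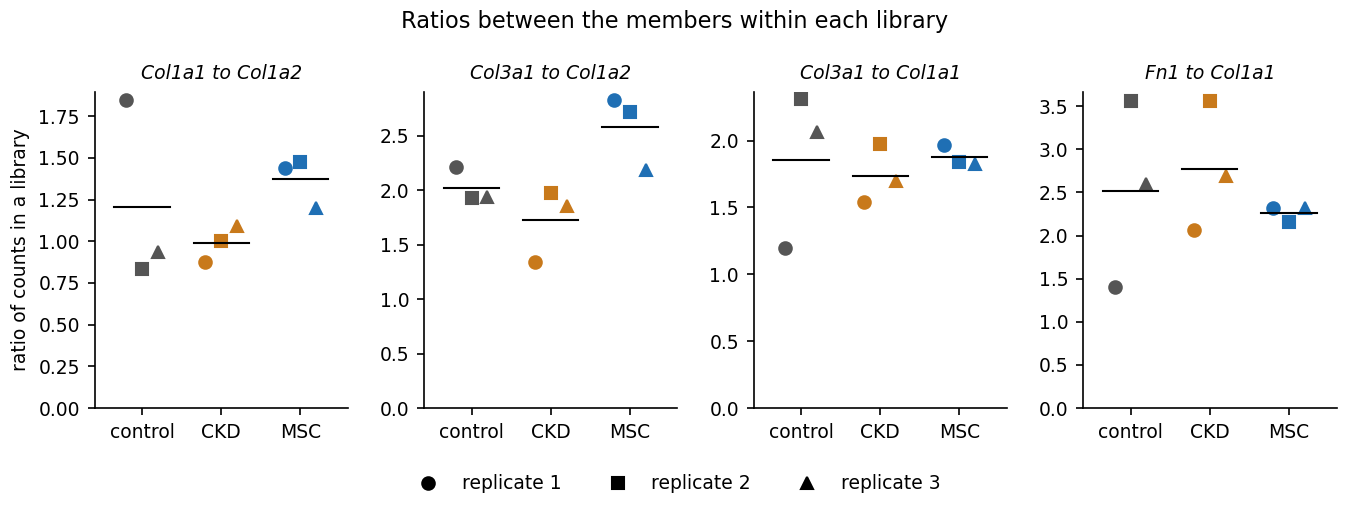
Ratios of counts between pairs of members in each of 9 libraries (linear axis from 0), by group, with symbols for replicates and a line at the group mean. Col1a1 to Col1a2 is higher in each MSC library than in any CKD library, control replicate 1 stands apart at 1.85, and Fn1 to Col1a1 lies between 2.16 and 2.32 in MSC kidneys.

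The calls for the members held under each alternative that was run. In MSC against CKD all 4 stayed past the threshold in all 17 refits, with log2 folds of 2.81 to 3.49 for Col1a1, 2.25 to 2.93 for Col1a2, 2.87 to 3.73 for Col3a1 and 2.41 to 3.47 for Fn1. The share of all tested genes called in those refits ran from 8.37% (without MSC replicate 2) to 28.8% (DESeq2). The lowest fold of each gene came without CKD replicate 3, and the highest without CKD replicate 2. In MSC against control all 4 were likewise called in 17 of 17 refits, at log2 folds of at least 2.67, where 17.2% (without MSC replicate 2) to 37.5% (DESeq2) of all tested genes were called. In CKD against control none was called in any of them.

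**Figure D5:**
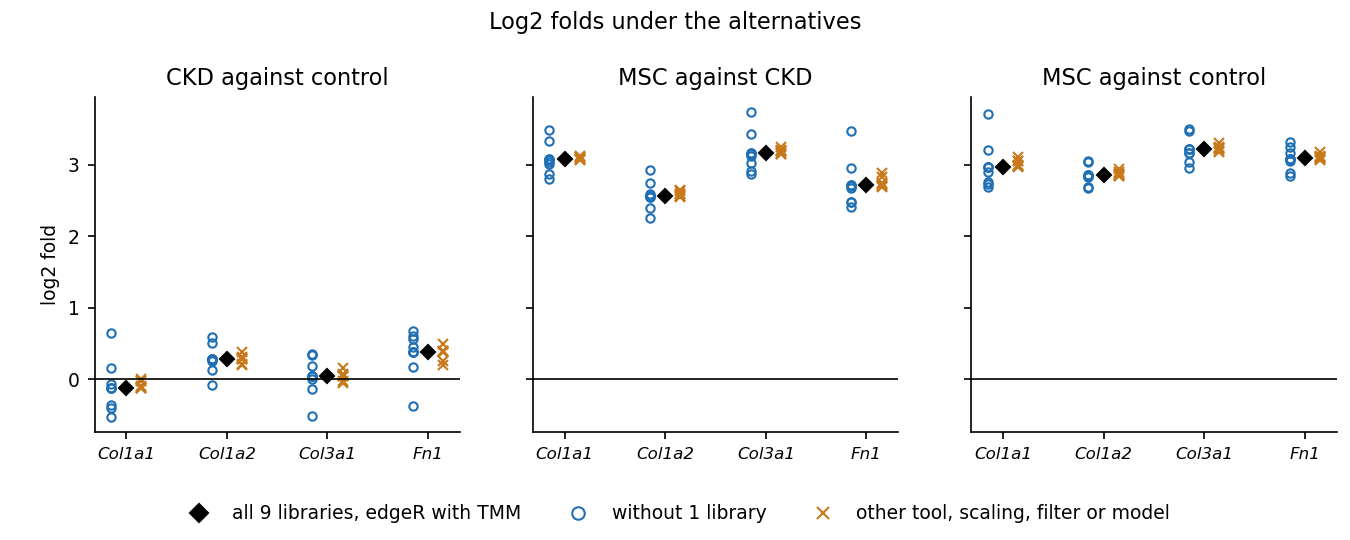
Log2 folds of the 4 members in the 3 comparisons for the fit of 9 libraries (diamonds), for fits without 1 library (circles) and for other tools, scalings, filters or models (crosses). Values around 0 in CKD against control change sign, while both comparisons with MSC kidneys stay above 2.25.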

How the data were processed

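The authors deposited 1 table of whole-number, unscaled counts per Ensembl gene for 9 rat kidney libraries. Per the labels' protocols, RNA was TRIzol-extracted, captured on oligo(dT) beads and made into strand-specific libraries. Tools were HISAT2, StringTie and cutadapt, on the build Rnor_6.0, per the submitters' processing notes. Their versions, the annotation and the strand setting are not stated in the labels used here, so reads shared with overlapping genes or between these repetitive collagen genes cannot be assessed. Columns were matched to samples by their descriptions.

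The symbols of the 4 identifiers came with the definition of the group. The RefSeq gene table (GRCr8, 47357 genes) has 0 Ensembl identifiers and paired 0 of 22637, so the 7 lists of other matrix and signalling genes and the cell type markers gave no values. Members and lists were chosen with earlier results of these data known.

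Genes were kept by filterByExpr (17584), scaled by TMM and tested with edgeR 4.0.16 (R 4.3.3), quasi-likelihood with robust estimation, group as the only term, all 9 libraries in 1 fit, two-sided, Benjamini-Hochberg adjustment over all tested genes, threshold 0.05. SEs were derived from the F statistic, and log2 CPM used a prior count of 2. DESeq2 1.42.0 (on the unfiltered table) and limma 3.58.1 (voom) were alternatives. Other alternatives were 3 scalings, no filter, the replicate block, 2 groups only and each library left out. On simulated counts for 17584 genes, the MSC against CKD test found 77 of 100 genes placed at 4-fold and 30 of 100 placed at 2-fold, and the CKD against control test 80 and 35. The changed genes were drawn from those with higher mean counts only. In the simulation the MSC against CKD test called 114 genes, against 4010 in the data. The CKD against control test called 117 there, against 0 in the data, so the shares found do not carry over directly. They also hold for genes drawn without regard to replicate spread, which was wider for the members than for most tested genes. Replicates of a group differed far beyond counting noise (chi-square per gene of at least 59.7), so no library was another one of its group sequenced again. Libraries of different groups were not compared in this way. Separate preparations of shared RNA, and shared animals, cannot be seen from this value. The genes named are the 4 members and, by highest mean correlation with them, 2 others. Other genes would have been named where a symbol was known.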

Additional observations from a re-analysis of the deposited data

How the results depend on the processing

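All 4 members were called in MSC against CKD, in MSC against control and in the joint test, and none in CKD against control, under every alternative run: RLE, upper-quartile and library-size scaling, no filter, DESeq2, limma-voom, the replicate block, only the 2 groups compared (not for the joint test) and each library left out. Leaving out each library in turn gave 4, 4, 4 and 0 called members, while the share of all tested genes called was 8.37% to 25.9% for MSC against CKD, 17.2% to 32.8% for MSC against control, 8.25% to 28.4% for the joint test and 0% to 0.0111% for CKD against control. In MSC against CKD the highest edgeR adjusted p of a member was 0.0368, for Fn1 without CKD replicate 1. Uncalled throughout, log2 folds of CKD against control changed sign for Col1a1 without control replicate 1 (0.65) and without CKD replicate 3 (0.16). For Col1a2 and Fn1 they did so without CKD replicate 2 (-0.083 and -0.38). For Col3a1 they were -0.053 with limma-voom, -0.023 with the replicate block, -0.0023 without control replicate 2, -0.14 without control replicate 3 and -0.52 without CKD replicate 2. Without single libraries these folds ran from -0.53 to 0.65 for Col1a1, from -0.083 to 0.60 for Col1a2, from -0.52 to 0.35 for Col3a1 and from -0.38 to 0.68 for Fn1.

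With the replicate block the log2 folds between MSC and CKD were 3.07, 2.63, 3.20 and 2.83 for Col1a1, Col1a2, Col3a1 and Fn1, and it changed no call of a member. The labels do not say that replicate numbers pair the libraries. For libraries of the same number, deviations from group means were correlated above 0.1 in all 3 control and CKD pairs (0.104, 0.251 and 0.370). This did not hold in every pair with MSC libraries (6 of 9 pairs in all, lowest -0.236). Libraries of unlike numbers were not compared, so these values cannot show whether the numbers pair the libraries. In CKD against control the block gave log2 folds of -0.024, 0.21, -0.023 and 0.26 in the order above. Over all genes the block called 4493 genes in MSC against CKD, where the fit without it called 4010. The mean ratio of Col1a1 to Col1a2 in controls ran from 0.886 to 1.39 without single libraries, and that of Col3a1 to Col1a2 in CKD kidneys from 1.60 to 1.92. The lowest count of a member was 950, so counting error was small beside the replicate spread.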
